A study of Homo sapiens with 4 samples.

Results

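The HOX genes were taken as all genes of the count table whose symbol is HOX followed by a cluster letter, A to D, and a number. This rule found 39 genes among 63856 in the table, 11 in cluster HOXA, 10 in HOXB, 9 in HOXC and 9 in HOXD, and 17 of them had enough reads to be tested among 15830 tested genes. RNA-seq was made from MCF10A, an immortal but non-tumorigenic line of human mammary epithelium. The 2 wild type libraries came from unmodified MCF10A cells, and the 2 HSF1-pLVX libraries came from MCF10A cells with stable overexpression of HSF1, the main transcription factor of the heat shock response, from the pLVX lentiviral vector. All 4 cultures were kept in DMEM/F12 medium with horse serum, insulin, hydrocortisone, EGF and cholera toxin. The study's methods name all of these but cholera toxin. None of the 4 libraries came from cells with the empty vector. HSF1 can therefore not be told apart from the vector, the drug selection of transduced cells or the history of the culture. The study's methods call the replicates biological, the labels do not say whether they were separate cultures, and p-values measure the spread between these libraries only.

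HOX genes encode homeodomain transcription factors that give cells their position along the head to tail axis of the embryo. They lie in 4 clusters on 4 chromosomes, and genes at matching positions of the clusters, called paralog groups, descend from 1 ancestral gene. Genes of low group number lie at the 3′ end of a cluster, are switched on first and furthest to the head, and genes of high number lie at the 5′ end and act towards the tail and the limb tips. HOX genes are switched on by retinoic acid and MLL complexes, kept silent by Polycomb complexes, and bind DNA with TALE homeodomain cofactors. Many stay on in adult epithelia, where their combination differs between tissues and the mammary gland uses several of them.

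The libraries held 18688109 to 24184285 counts, of which 1952 to 2429 fell in HOX genes. HSF1 was at 200.1 and 189 CPM (counts per 1000000 after TMM scaling) in wild type libraries and at 981 and 997 CPM in HSF1-pLVX libraries, a log2 fold change of 2.35 (adjusted p = 1.1e-10, edgeR quasi-likelihood test). Of all tested genes, 65.9% changed at an adjusted p of 0.05, with 32.7% higher and 33.2% lower in HSF1-pLVX cells, and 83.1% had groups that did not overlap in CPM. Counts of HOX genes have to be read against these shares. The cell type was checked with fixed markers: 7 basal mammary markers summed to 15874 and 15176 CPM in wild type and to 9995 and 10809 CPM in HSF1-pLVX libraries, with KRT5, TP63 and ITGA6 higher and KRT14, KRT17 and LAMB3 lower, and 5 of 5 epithelial markers (CDH1, EPCAM, KRT8, KRT18 and KRT19) were lower. Of other cell types, 4 leukocyte markers summed to at most 0.484 CPM in any library, with PTPRC at 0, the 7 fibroblast markers summed to 7.77 and 10.8 CPM against 14.9 and 13.9 CPM, with COL1A2, COL3A1 and LUM at 3 counts or fewer in every library and DCN higher, at 1 and 3 counts against 94 and 87 (log2 5.16, adjusted p = 1.1e-07), and 4 endothelial markers, mainly KDR, summed to 3.03 and 1.93 CPM against 13.1 and 14.3 CPM. Most of the fibroblast sum was COL1A1, at 7.18 and 10.4 CPM in wild type and at 10.7 and 9.20 CPM in HSF1-pLVX libraries. COL1A1 did not pass (log2 0.19, adjusted p = 0.35, edgeR). PDGFRA had 6 and 4 counts against 1 and 1, and PDGFRB had 2 and 0 against 10 and 5. In these bulk libraries, fewer cells with a transcript and less of it per cell cannot be told apart, and the part of these marker changes in the HOX values was not tested.

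The clusters moved in different directions. In HSF1-pLVX cells, 4 HOX genes were higher, all of cluster HOXA and of paralog groups 2 to 5 (HOXA2, HOXA3, HOXA4 and HOXA5), and 8 were lower, all of clusters HOXB and HOXC (HOXB2, HOXB3, HOXB4, HOXB6, HOXC8, HOXC9, HOXC11 and HOXC13). HOXA10, HOXA11, HOXC4 and HOXC6 were among the tested genes that did not pass the test. The share of tested HOX genes that changed, 70.6%, was near the 65.9% over all tested genes, with 23.5% higher against 32.7% and 47.1% lower against 33.2%. At least 2-fold, 4 of 17 were higher and 5 of 17 lower, beside 14.9% and 14% of all tested genes. The groups did not overlap for 15 of 17 tested HOX genes, beside 83.1% over all. The median log2 fold change was -0.33 over the tested HOX genes and 0.02 over all tested genes. It was 1.20 over the 7 tested HOXA genes, -1.27 over the 4 tested HOXB genes and -0.97 over the 6 tested HOXC genes. By position, 2 of 7 tested central genes (groups 4 to 8) were higher and 3 lower, and of 5 posterior genes (groups 9 to 13), none was higher and 3 were lower. In each of the paralog groups 2, 3 and 4 the HOXA gene was higher and the HOXB gene lower.

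**Figure D1:**
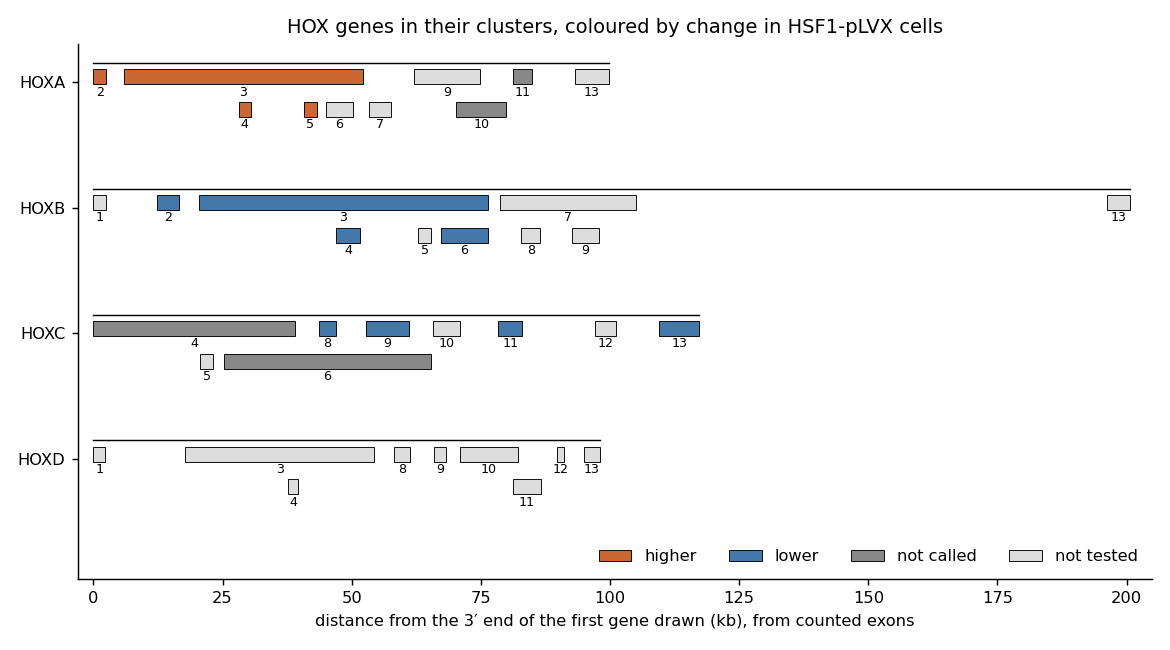
HOX genes drawn to scale by their counted exons, with the distance in kb from the 3′ end of the first gene drawn of each cluster on the horizontal axis, a row of boxes for each cluster and the group number under each box; boxes sit on 2 lines where genes overlap. Orange boxes rose and blue boxes fell in HSF1-pLVX cells, dark grey boxes did not pass the test and light grey boxes were not tested; the 4 higher genes are neighbours in HOXA, and all 9 genes of HOXD are light grey.

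Cluster HOXA lies on the minus strand of chromosome 7 (coordinates here are of hg38). Of its genes, the files of RefSeq promoters held an entry for 3 that rose, and their bases before the gene start are shown because these genes are neighbours that moved together. Printed 5′ to 3′ on the minus strand from RefSeq (GRCh38.p14), the stretches end close to the first counted base of each gene, at chr7:27102812-27102933 for HOXA2, chr7:27152584-27152833 for HOXA3 (the outermost of its 7 entries) and chr7:27130800-27131007 for HOXA4. Capitals mark a CCAAT box (CCAAT, or ATTGG on the other strand) and, in HOXA3, also a TATA box on the other strand (TTTATA).
HOXA2: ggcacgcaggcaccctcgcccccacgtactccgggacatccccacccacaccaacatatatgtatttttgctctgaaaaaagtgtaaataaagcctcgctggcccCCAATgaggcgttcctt
HOXA3: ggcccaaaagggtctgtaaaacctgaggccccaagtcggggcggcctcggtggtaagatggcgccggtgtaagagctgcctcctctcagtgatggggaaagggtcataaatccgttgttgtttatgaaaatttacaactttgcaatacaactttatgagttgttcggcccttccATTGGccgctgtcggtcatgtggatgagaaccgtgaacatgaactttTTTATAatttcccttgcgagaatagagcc
HOXA4: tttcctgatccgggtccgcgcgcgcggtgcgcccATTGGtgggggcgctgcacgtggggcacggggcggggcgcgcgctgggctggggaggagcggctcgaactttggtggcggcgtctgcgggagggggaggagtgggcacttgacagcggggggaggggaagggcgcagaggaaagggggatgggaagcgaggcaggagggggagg
The stretches before HOXA2 and HOXA4 lie outside all counted exons, and that before HOXA3 lies in an exon of the antisense gene HOXA-AS3. A CCAAT box on either strand was in 18 of 27 HOX promoter entries, which cover 20 of the 39 genes, and in 32% of 35116 promoters of the same length, 250 bases before the start. Of the 27 entries, 7 are of HOXA3. Only 6 tested HOX genes have an entry. HOXA5 and the 8 lower HOX genes have none, so their promoters were not scanned. TATAAA was in 5 of 27 HOX entries and 10.7% of all promoters, and TGATNNAT, a PBX and HOX motif, in 3 of 27 and 6.47%. The HOXA2 entry is among those with TGATNNAT. The HOXA2 stretch printed above holds only 122 of the 250 bases scanned. Its TGATNNAT match and further CCAAT boxes lie in the bases that are not printed. A pair of facing heat shock element units (GAANNTTC or TTCNNGAA, each the same on both strands) was in 1 of 27 HOX entries, that of HOXD3, and in 11.6% of all promoters. These matches describe letters in a window and were not tested as sites.

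HOXA2 (ENSG00000105996.6, chr7:27100354-27102811), a gene of hindbrain and neural crest patterning, was at 1.54 and 1.128 CPM in wild type libraries and at 3.70 and 4.27 CPM in HSF1-pLVX libraries. Both HSF1-pLVX libraries lay above both wild type libraries, with a 2.96-fold higher level (log2 1.57, SE 0.265, adjusted p = 0.00012, edgeR). HOXA3 (ENSG00000105997.22, chr7:27106184-27152581), needed for the thymus and parathyroid, was at 7.82 and 8.97 CPM in wild type and at 20.2 and 20.5 CPM in HSF1-pLVX libraries. Its increase was 2.42-fold (log2 1.28, SE 0.123, adjusted p = 4.6e-07), and the groups did not overlap. HOXA4 (ENSG00000197576.13, chr7:27128507-27130799), the next gene in the 5′ direction by paralog group, was at 1.44 and 1.07 CPM in wild type and at 2.70 and 3.12 CPM in HSF1-pLVX libraries. The groups were again apart, by 2.30-fold (log2 1.20, SE 0.280, adjusted p = 0.0016). HOXA5 (ENSG00000106004.4, chr7:27141052-27143668), a regulator of lung and mammary development known in breast epithelium as an activator of the p53 gene, was at 7.55 and 7.36 CPM in wild type and at 18.02 and 18.09 CPM in HSF1-pLVX libraries. It differed by 2.42-fold with little spread in either group (log2 1.27, SE 0.123, adjusted p = 4.8e-07).

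The tested genes on the 5′ side of these neighbours did not pass. HOXA10 (ENSG00000253293.4), a gene of uterine and blood cell development, was at 3.78 and 3.39 CPM in wild type and at 3.86 and 3.77 CPM in HSF1-pLVX libraries. These values overlap, and the interval of its log2 fold change runs from -0.35 to 0.54 (adjusted p = 0.72). HOXA11 (ENSG00000005073.5), a gene of limb and uterine development, was at 1.596 and 1.343 CPM in wild type and at 0.95 and 1.56 CPM in HSF1-pLVX libraries, also overlapping (log2 -0.25, interval -0.95 to 0.45, adjusted p = 0.52). The 4 HOXA genes that were not tested held few reads. HOXA9, a posterior gene expressed in blood progenitors, had 6 and 4 counts in wild type and 18 and 10 in HSF1-pLVX libraries, and HOXA7 had 9 and 7 against 3 and 1. Without the filter on low counts, HOXA7 was lower (log2 -2.20, adjusted p = 0.014) and HOXA9 did not pass (log2 1.18, adjusted p = 0.070). HOXA7 shares 62.5% of its exon length with the antisense gene HOXA-AS3, so its few reads cannot be assigned with certainty. HOXA6 had 2 to 5 counts in each library and HOXA13 at most 1.

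**Figure D2:**
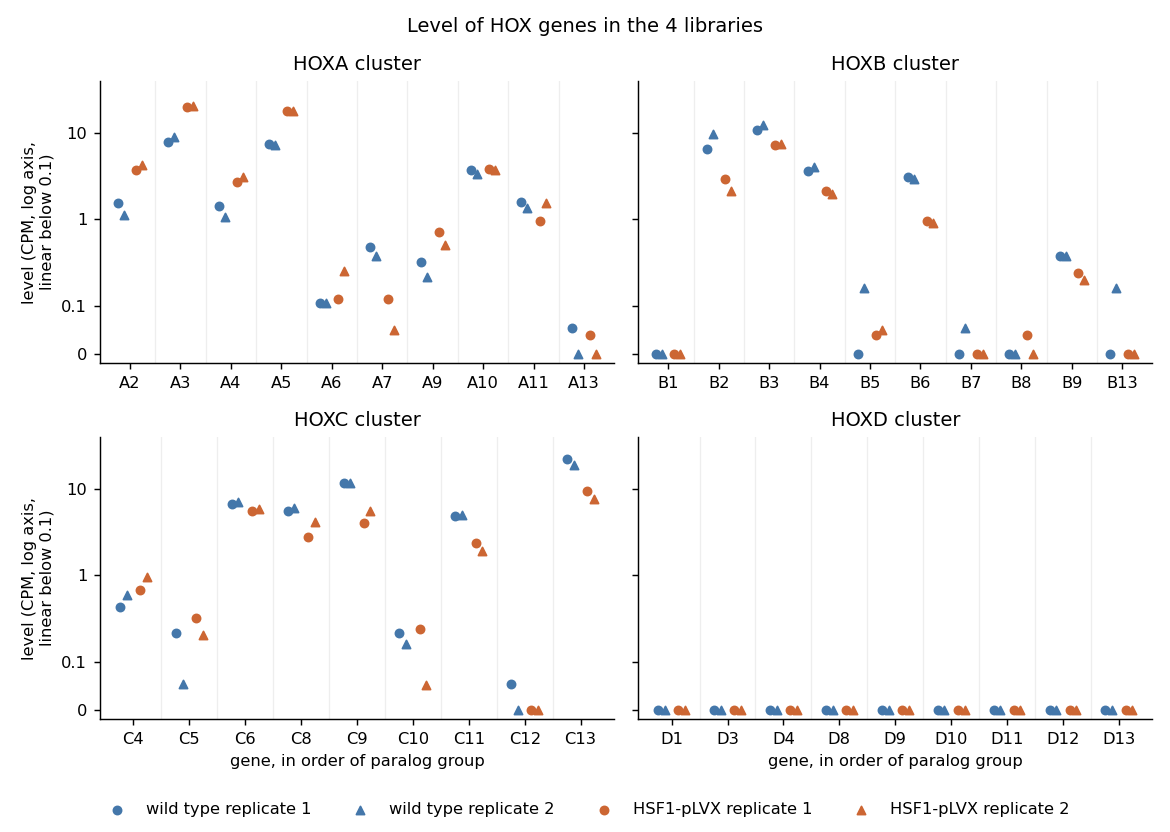
CPM of HOX genes in each library, on a log vertical axis that is linear near 0, with a panel for each cluster, the genes in order of paralog group on the horizontal axis and a point for each library, coloured by group. The HSF1-pLVX points lie above the wild type points for HOXA2 to HOXA5 and below them for all 4 tested HOXB genes and for the tested genes from HOXC6 to HOXC13.

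Cluster HOXB spans 201 kb of chromosome 17 on the minus strand (chr17:48528526-48729178), and all 4 of its tested genes were lower in HSF1-pLVX cells. HOXB2 (ENSG00000173917.10, chr17:48540894-48544989), the partner of HOXA2 in paralog group 2, was at 6.49 and 9.67 CPM in wild type and at 2.94 and 2.11 CPM in HSF1-pLVX libraries. The groups did not overlap, although the wild type libraries were spread, and the level was 3.16-fold lower (log2 -1.66, SE 0.237, adjusted p = 2.4e-05). HOXB3 (ENSG00000120093.11, chr17:48548870-48604912) was at 10.7 and 12.4 CPM in wild type and at 7.36 and 7.39 CPM in HSF1-pLVX libraries. Its decrease was the smallest of the 4, 1.57-fold (log2 -0.65, SE 0.141, adjusted p = 0.00094). HOXB4 (ENSG00000182742.5, chr17:48575513-48580111), which promotes the growth of blood stem cells, was at 3.62 and 4.03 CPM in wild type and at 2.15 and 1.96 CPM in HSF1-pLVX libraries. It was 1.85-fold lower with no overlap (log2 -0.89, SE 0.234, adjusted p = 0.0039). HOXB6 (ENSG00000108511.9, chr17:48595751-48604992) was at 3.14 and 2.90 CPM in wild type and at 0.95 and 0.90 CPM in HSF1-pLVX libraries. That was a 3.23-fold lower level, with the most negative log2 fold change of all tested HOX genes (-1.69, SE 0.277, adjusted p = 9.0e-05).

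The 6 other HOXB genes were hardly detected. HOXB9, a posterior gene also studied in breast tumours, had 7 and 7 counts in wild type and 6 and 4 in HSF1-pLVX libraries, below the filter. HOXB5, HOXB7, HOXB8 and HOXB13 had at most 3 counts in any library, and HOXB1 had none. A count of 0 allows up to 3 counts, which is 0.119 to 0.161 CPM in these libraries. The tested HOXB genes were thus those of groups 2, 3, 4 and 6.

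Cluster HOXC spans 117 kb of chromosome 12 on the plus strand (chr12:53938765-54056030) and has no genes of groups 1 to 3. Its 3 tested posterior genes all fell by at least 2-fold. HOXC9 (ENSG00000180806.4, chr12:53994895-54003337), a gene of thoracic patterning, was at 11.8 and 11.8 CPM in wild type and at 3.98 and 5.48 CPM in HSF1-pLVX libraries. It was 2.51-fold lower (log2 -1.33, SE 0.168, adjusted p = 7.4e-06), with both HSF1-pLVX libraries well under both wild type libraries. HOXC11 (ENSG00000123388.4, chr12:53973126-53977643) was at 4.84 and 4.94 CPM in wild type and at 2.35 and 1.91 CPM in HSF1-pLVX libraries. The groups were apart by 2.28-fold (log2 -1.19, SE 0.222, adjusted p = 0.00028). HOXC13 (ENSG00000123364.4, chr12:53938765-53946544), the 5′ end gene, required for hair and nail keratin genes, was at 22.3 and 19.1 CPM in wild type and at 9.47 and 7.64 CPM in HSF1-pLVX libraries. Its level was 2.41-fold lower (log2 -1.27, SE 0.136, adjusted p = 1.4e-06).

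HOXC8 (ENSG00000037965.5, chr12:54009106-54012362), a central gene, was at 5.58 and 5.96 CPM in wild type and at 2.78 and 4.17 CPM in HSF1-pLVX libraries. It was 1.68-fold lower (log2 -0.75, SE 0.219, adjusted p = 0.0079), but its 2 HSF1-pLVX libraries differed, and without HSF1-pLVX replicate 1 the change was -0.47 and did not pass (adjusted p = 0.12). HOXC6 (ENSG00000197757.7, chr12:53990624-54030823), a gene expressed in the embryonic mammary gland, was at 6.65 and 7.09 CPM in wild type and at 5.57 and 5.83 CPM in HSF1-pLVX libraries. The groups did not overlap, yet the change did not pass the test (log2 -0.27, interval -0.62 to 0.08, adjusted p = 0.16). HOXC4 (ENSG00000198353.7, chr12:54016931-54056030), the 3′ end gene, was at 0.43 and 0.59 CPM in wild type and at 0.68 and 0.95 CPM in HSF1-pLVX libraries, with a wide interval from -0.22 to 1.53 around a log2 fold change of 0.66 (adjusted p = 0.17). HOXC5 had 4 and 1 counts in wild type and 8 and 4 in HSF1-pLVX libraries, HOXC10 had 4 and 3 against 6 and 1, and HOXC12 had a single count in 1 library; none of them was tested. Along HOXC the log2 fold change was lower at higher paralog group number (Pearson's r = -0.89 and Spearman's rho = -0.83 over 6 genes of the same 4 libraries, a description with no test). It was weaker over the 7 tested HOXA genes (r = -0.47, rho = -0.21), the 4 tested HOXB genes (r = -0.23, rho = -0.40) and all 17 tested HOX genes (r = -0.38, rho = -0.31).

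**Figure D3:**
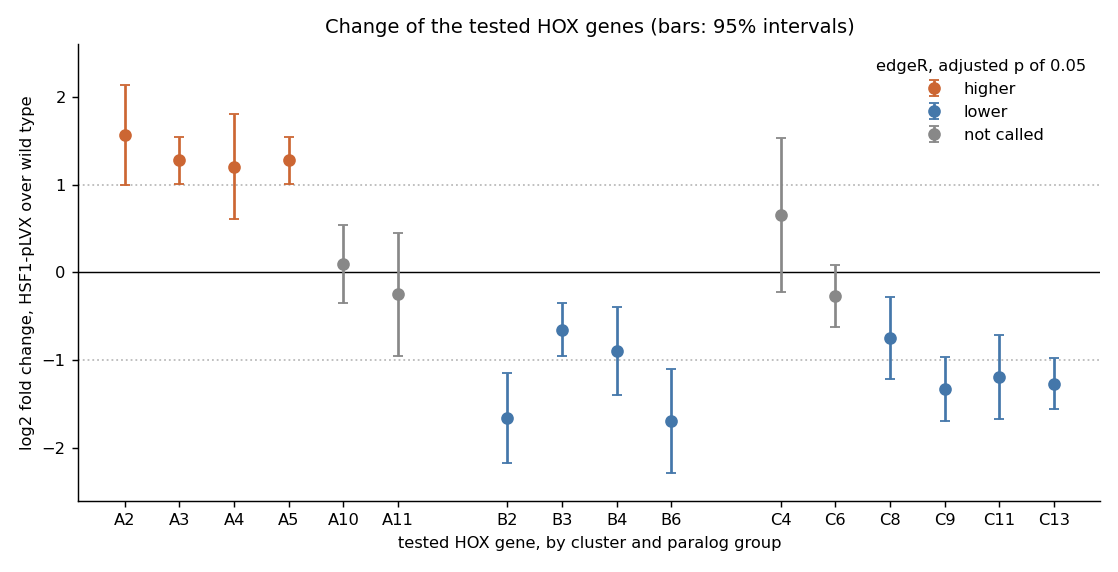
Log2 fold change of HSF1-pLVX over wild type for tested HOX genes, by cluster and paralog group; points are edgeR estimates, bars are 95% intervals and dotted lines mark 2-fold. HOXA2 to HOXA5 lie between 1.20 and 1.57, the HOXB genes between -1.69 and -0.65, and the HOXC genes from 0.66 at HOXC4 down to -1.33 at HOXC9.

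Cluster HOXD lies on chromosome 2 (chr2:176092891-176190907, 98 kb, plus strand), and its 9 genes, HOXD1, HOXD3, HOXD4 and HOXD8 to HOXD13, had 0 counts in all 4 libraries. No change could be read there at this depth, since a count of 0 allows up to 0.161 CPM. The 8 other genes annotated inside the cluster, among them the noncoding HAGLR, HAGLROS and HOXD-AS2 and the microRNA gene MIR10B, were also at 0. Of the rows within 500 kb, 4 of 11 on the HOXD1 side and 4 of 5 on the HOXD13 side, among them EVX2, the nearest gene there, were at 0 as well. Over the whole count table, 32631 of 63856 rows had any count, so rows at 0 are common. Reads were found on both sides. The nearest row on the HOXD1 side, ENSG00000218175.2, has no symbol. It was at 11.9 and 9.78 CPM in wild type and at 18.5 and 23.6 CPM in HSF1-pLVX libraries. This row was higher in HSF1-pLVX cells (log2 0.95, adjusted p = 3.8e-05, edgeR). MTX2, a mitochondrial import gene 78.5 kb beyond HOXD1, was at 30.1 and 32.2 CPM in wild type and at 29.5 and 30.6 CPM in HSF1-pLVX libraries. LNPK, a gene of endoplasmic reticulum shape 90.1 kb beyond HOXD13, was at 32.3 and 39.2 CPM in wild type and was lower at 19.8 and 16.0 CPM in HSF1-pLVX libraries (log2 -0.99, adjusted p = 6.0e-06). The count table has 5637 rows on 349 sequences outside the main chromosomes, which could take reads from a gene with a copy there, and none of these sequences held the exon lengths of more than 1 gene of any HOX cluster. This check compares exact exon lengths only and would miss a partial or differently annotated copy. Loss of reads to such copies was not tested.

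Summed over its genes, HOXA was at 33.3 and 33.2 CPM in wild type libraries and at 57.5 and 59.3 CPM in HSF1-pLVX libraries. HOXB was at 24.4 and 29.8 CPM against 13.7 and 12.6 CPM, and HOXC at 52.1 and 49.7 CPM against 25.4 and 26.2 CPM. The log2 ratios of the means were 0.81 for HOXA, -1.04 for HOXB and -0.98 for HOXC; with 2 libraries in each group an exact permutation test cannot give a p under 0.33, and these sums were not tested. All HOX genes together summed to 110 and 113 CPM in wild type and to 96.6 and 98.1 CPM in HSF1-pLVX libraries, 0.875 of the wild type mean. Thus the total moved little, while the share of HOXA in it went from 30.4% and 29.5% to 59.5% and 60.4%. The share of HOXC went from 47.4% and 44.1% to 26.3% and 26.7%, and that of HOXB from 22.2% and 26.4% to 14.2% and 12.9%. These shares are taken from 1 total and cannot move independently.

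**Figure D4:**
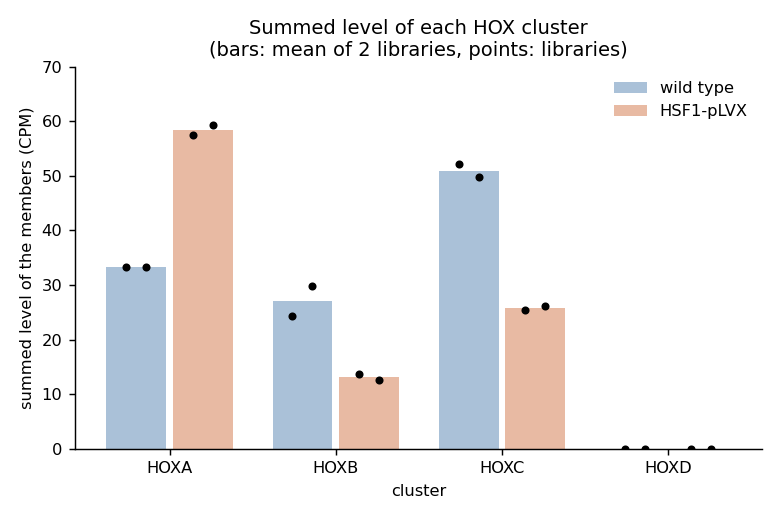
Summed CPM of the HOX genes of each cluster (vertical axis, from 0) in wild type and HSF1-pLVX cells; bars are means of 2 libraries and points are the libraries. The HOXA bar rises from 33.3 to 58.4 CPM, the HOXB and HOXC bars drop from 27.1 to 13.2 and from 50.9 to 25.8 CPM, and HOXD stays at 0.

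Compared per kilobase of counted exon, the order of the genes differed between the groups. In wild type cells HOXC13 had the highest level with 9.22 and 7.90 CPM per kb, followed by HOXC9 with 7.001 and 7.009 and HOXA5 with 4.42 and 4.31 CPM per kb. Those of HOXB2, 2.78 and 4.14, overlap those of HOXC8, 2.96 and 3.16. In HSF1-pLVX cells HOXA5 came first with 10.6 and 10.6 CPM per kb, ahead of HOXA3 with 4.69 and 4.75 and HOXC13 with 3.91 and 3.15; the values of HOXC9, 2.37 and 3.26, overlap those of HOXC13. Within paralog groups, the ratio of HOXA3 to HOXB3 per kb was 1.26 and 1.25 in wild type and 4.75 and 4.79 in HSF1-pLVX libraries. HOXA4 against HOXB4 went from 0.854 and 0.573 to 2.71 and 3.42, and HOXA2 against HOXB2 from 0.226 and 0.111 to 1.19 and 1.92. The order of the partners was therefore turned for groups 2 and 4. In mean CPM over all 4 libraries, none of the 17 tested HOX genes lay above the median of all tested genes, 15.7, and the highest, HOXC13, was at 14.6. Within groups some lay above that value, HOXC13 in both wild type libraries and HOXA3 and HOXA5 in both HSF1-pLVX libraries.

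The deposited normalized values were also read by the study's criterion, which asks for a ratio over 2 or under 0.5 within each of the 2 replicate numbers. It took HOXA3 (ratios 2.36 and 2.16) and HOXA5 (2.18 and 2.30) as higher, beside 5% of the 22321 genes in that table. HOXB2 (0.498 and 0.275), HOXB6 (0.421 and 0.443), HOXC9 (0.370 and 0.497) and HOXC13 (0.431 and 0.422) passed as lower, beside 6.42% of all. HOXA2 and HOXA4 missed it in replicate 1, at 1.90 and 1.55. The deposited log2 value of a gene with 0 counts is 3.12, an offset that shrinks the ratios of genes with few counts. From counts over size factors plus 1, the rule took 4 higher and 6 lower HOX genes.

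HOX genes overlap each other and their antisense transcripts, and since the strand setting of the counting is not given in the sources used here, reads of overlapping exons cannot be assigned with certainty. HOXA2, HOXA5, HOXC8 and HOXC11 share no exon base with another gene, and HOXB2, HOXC13 and HOXC9 share 3.72%, 7.10% and 9.71% of their exon length. HOXB3, HOXB4, HOXA3, HOXB6 and HOXA4 share 13.2%, 17.1%, 17.9%, 32.9% and 47.3%, so their values are less certain. HOXA4 and HOXA3 overlap HOXA-AS2, which was itself higher, and HOXB3 shares exons with HOXB4 and HOXB6. Over genes that share under 10%, the log2 ratio of the summed CPM was 0.72 for HOXA, -1.62 for HOXB and -1.19 for HOXC. The HOXB value is in effect that of HOXB2, the only tested gene in that sum.

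Among 28 listed noncoding genes in or near the clusters, 7 were tested, of which 4 were higher and none lower, with a median of 0.77. Over all tested genes, 32.7% were higher and 33.2% lower, 65.9% in either direction. HOTAIRM1, a noncoding gene on the 3′ side of HOXA2 that is known from myeloid cells, had 129 and 179 counts in wild type and 399 and 299 in HSF1-pLVX libraries (log2 0.91, adjusted p = 0.00010). HOXA-AS2, antisense to the region of HOXA3 and HOXA4, had 46 and 50 counts against 129 and 127 (log2 1.16, adjusted p = 0.00027). They lie beside and within the stretch from HOXA2 to HOXA5. In HOXC, where 4 of 6 tested HOX genes were lower, HOXC-AS1 had 8 and 12 counts in wild type and 25 and 34 in HSF1-pLVX libraries and was higher (log2 1.30, adjusted p = 0.011). HOTAIR, a HOXC noncoding RNA known from its binding of Polycomb proteins, did not pass with 37 and 38 counts against 40 and 25 (log2 -0.48, adjusted p = 0.15), nor did HOXC13-AS at 73 and 86 against 109 and 93 (log2 0.08, adjusted p = 0.74) or HOXB-AS1 at 19 and 28 against 32 and 32 (log2 0.18, adjusted p = 0.63). LINC01116, 438.7 kb from HOXD1, was higher (log2 0.77, adjusted p = 0.0011). LINC03057, which lies inside the HOXB interval (chr17:48635923-48647023) and was picked after its values were seen, had 34 and 19 counts in wild type and none in HSF1-pLVX libraries, at least 10.5-fold lower against 3 counts in each library.

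Tested named genes within 500 kb of the clusters moved both ways: of 34, 14 were higher and 9 lower, with a median log2 fold change of 0.05, beside 32.7% higher and 33.2% lower over all tested genes. Next to HOXA, SKAP2, an adaptor protein gene on the 3′ side, was at 42.9 and 44.7 CPM in wild type and at 44.5 and 39.8 CPM in HSF1-pLVX libraries and did not pass (log2 -0.05, adjusted p = 0.63), and HIBADH, an enzyme of valine breakdown on the far side, was higher (log2 0.57, adjusted p = 5.1e-05). Next to HOXB on the HOXB13 side, CALCOCO2, an autophagy receptor, and ATP5MC1, an ATP synthase subunit, were higher (log2 0.67 and 0.69), and UBE2Z, a ubiquitin-conjugating enzyme, was lower (-0.73). On the HOXB1 side SNX11, CBX1 and NFE2L1 were lower (log2 -0.91, -0.47 and -0.58), and COPZ2 was higher (0.93). Next to HOXC on the HOXC4 side, SMUG1, a DNA repair glycosylase, and LINC02381 were lower (log2 -0.28 and -0.86), while CBX5, a heterochromatin protein, and HNRNPA1, a splicing factor, were higher (0.82 and 1.95). Beyond HOXC13, CALCOCO1 was lower (-0.54) and ATP5MC2 higher (0.77).

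Genes that work with or on HOX genes were described from fixed lists, whose counts are to be read against the 32.7% higher and 33.2% lower over all tested genes. Of the TALE cofactors, which bind DNA with HOX proteins, 7 of 9 were tested and 1 was higher and 1 lower, with a median of -0.06. MEIS2 was at 8.30 and 9.51 CPM in wild type and at 5.81 and 6.13 CPM in HSF1-pLVX libraries (log2 -0.58, adjusted p = 0.0046). PBX3 (log2 -0.06) and MEIS1 (0.34) did not pass, and MEIS3, of 14 to 48 counts a library, was higher (0.80, adjusted p = 0.044). PBX2 was at 0 in all 4 libraries; it lies in the MHC region, for which the table holds further copies, and its 0 is not read as a level.

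The core and accessory genes of Polycomb complex PRC2, which methylates histone H3 at silent HOX clusters, were higher in 6 of 10 tested cases and lower in none (12 listed, median 0.40), beside 32.7% higher and 33.2% lower over all tested genes. EZH2, its catalytic subunit, was at 10.3 and 11.4 CPM in wild type and at 30.3 and 27.3 CPM in HSF1-pLVX libraries (log2 1.41, adjusted p = 7.3e-08). PHF19, which guides the complex to chromatin, went from 13.2 and 11.9 to 44.9 and 42.9 CPM (log2 1.80), and AEBP2 and RBBP4 were higher by 0.88 and 0.61. EZH1, the other catalytic subunit, did not pass (-0.05). Of the PRC1 genes, 18 of 21 were tested, with 4 higher (PHC2 0.86, PCGF1 0.62, SCMH1 0.51 and PCGF6 0.43) and 4 lower, among them CBX6 at -1.10 (median 0.09). Of 19 tested genes for MLL complexes, their partners and H3K27 demethylases, which keep HOX genes active, 6 were higher and 5 lower (median -0.07). The same shares over all tested genes stand beside the PRC1 and MLL counts. The chromatin tether PSIP1 was higher by 1.41, and the elongation factors MLLT3, AFF4 and AFF1 were lower by -1.44, -0.87 and -0.82.

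The retinoic acid pathway, which switches on 3′ HOX genes in the embryo, had 6 genes higher and 3 lower among 12 tested of 19 listed (median 0.53), beside 32.7% higher and 33.2% lower over all tested genes. CYP26B1, which breaks down retinoic acid, was at 1.86 and 1.93 CPM in wild type and at 8.35 and 8.64 CPM in HSF1-pLVX libraries (log2 2.16). The retinaldehyde reductase DHRS3 (log2 1.74), the retinol transporter STRA6 (1.89), the retinol dehydrogenase DHRS9 (2.57) and the receptors RXRA (1.57) and RARG (0.89) were higher as well. ALDH1A3, which makes retinoic acid, was at 656 and 663 CPM in wild type and at 224 and 199 CPM in HSF1-pLVX libraries (log2 -1.64), and the retinoid carrier CRABP2 (-0.45) was lower. RARB, a receptor that is itself induced by retinoic acid, did not pass (-0.38, adjusted p = 0.50).

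Of the ParaHOX, EVX, CTCF and cohesin genes, 4 of 12 were tested. The cohesin genes SMC3, SMC1A and RAD21, which shape chromatin loops, were higher (log2 0.81, 0.48 and 0.39), and 7 of the 12 were at 0 in every library, EVX1 and EVX2 next to HOXA and HOXD among them. Of 42 other homeobox genes of epithelia, 26 were tested, 9 were higher and 7 lower, and the median was 0.17, again beside 32.7% and 33.2% over all tested genes. ZEB2, a repressor of epithelial genes, was higher by 3.08 on the log2 scale, whereas LMX1B and MSX2 were lower by -1.73 and -1.69. ZEB2 had only 7 and 3 counts in wild type, near the floor, and 51 and 52 in HSF1-pLVX libraries. ZEB1 did not pass (log2 0.57, adjusted p = 0.15, edgeR).

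**Figure D5:**
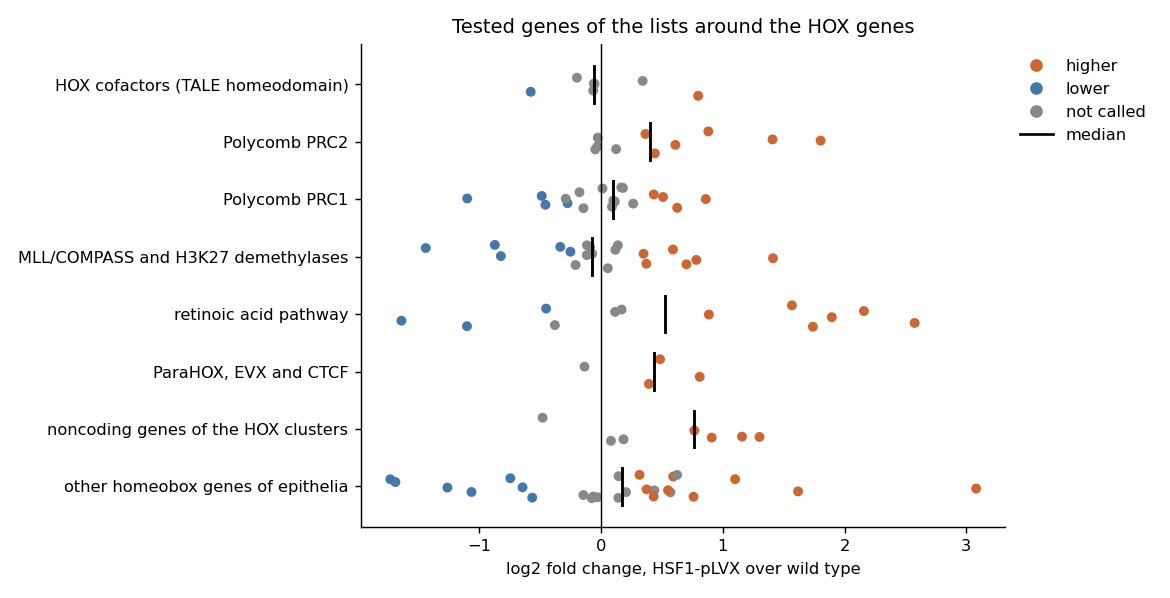
Log2 fold change of HSF1-pLVX over wild type (horizontal axis) for the tested genes of 8 lists, with a point for each gene, coloured by its edgeR call, and a line at the median of each list. The PRC2 list holds 6 genes called higher and none called lower, and the TALE, PRC1 and MLL lists hold genes called in both directions.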

How the data were processed

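RNA was measured in 2 wild type and 2 HSF1-pLVX libraries of MCF10A cells, from ribosome-depleted total RNA. Per the study's methods and the submitters' processing notes, the authors aligned reads to hg38 with HISAT2 2.0.5, handled them with SAMtools 1.13 and deposited raw counts per gene from featureCounts 1.6.5 over GENCODE release 26. They also deposited a table of log2 values normalized with DESeq2 1.32.0, used here only for the study's ratio rule. Strand and overlap settings are not given in the sources used here. Symbols came from GENCODE release 44 and named 41805 of 63856 genes. The HOX genes, the gene lists and the tests were chosen with earlier results of these data known.

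Counts were tested with edgeR 4.0.16 (R 4.3.3): TMM factors of 0.964 to 1.04, its default filter on low counts, the quasi-likelihood test without a replicate term, and Benjamini-Hochberg adjustment over 15830 genes, with a change called at 0.05. The number of genes at an unadjusted p of 0.05 was 10880. CPM are counts per 1000000 of the TMM-scaled library, and the SE follows from the fold change and its F statistic. Replicates differed by more than counting noise (chi-square per degree of freedom 6.995 in wild type and 8.91 in HSF1-pLVX), and no library was taken as a duplicate. The fit was tried on simulated data of this comparison (15377 to 15401 genes, 200 changed). It recovered 98.3% of 2-fold changes, and 4.31% of its calls were false. In the measured data 10428 genes were called, many more than 200. Recovery at the level of the tested HOX genes, a median of 4.63 CPM, was not tested separately. Counts, sums and medians are over all 39 HOX genes or all list genes, and some single genes are not reported here. Of other genes, those named are HSF1, markers, up to 4 changed genes a list with at least 50 counts in each library of the higher group, genes that flank a cluster within 500 kb, and a few more list genes chosen after their values were seen. Lists were described by counts and medians only. The depths of 18688109 to 24184285 counts set 3 counts as the floor, and this covers counting error only. Alternatives were DESeq2's size factors and Wald test (DESeq2 1.42.0), scaling by library size, no filter, a replicate block and leaving out each library.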

Additional observations from a re-analysis of the deposited data

How the results depend on the processing

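The 12 HOX genes that changed kept their call and direction under DESeq2's size factors, scaling by library size, no filter, the replicate block and the Wald test of DESeq2. No filter added HOXA7. With the replicate block 10309 genes changed in place of 10428, among them the same 12 HOX genes. Same-numbered libraries did not deviate together (correlation 0.00014 over genes). This correlation cannot tell whether same-numbered libraries were made together. With each library left out in turn, 7805 to 9904 genes changed. The HOX genes then numbered 4 higher and 7 to 8 lower, 4 and 5 to 6 at least 2-fold. Without HSF1-pLVX replicate 1, HOXC8 lost its call (log2 -0.47, adjusted p = 0.12) and HOXA11, called in no setting, turned to 0.084 (adjusted p = 0.87); over the left-out libraries it ran from -0.61 to 0.084. The cause was not tested. The summed log2 ratio of HOXA was 0.87 by library size, and over genes that share under 10% of their exons it was 0.72 for HOXA, -1.62 for HOXB and -1.19 for HOXC, where fewer genes are summed. Left-out libraries gave 0.79 to 0.83, -1.18 to -0.89 and -1.01 to -0.95. The ratio rule took 4 higher and 6 lower HOX genes with counts over size factors plus 1, and 4 higher and 7 lower at a ratio of 1.5, in place of 2 and 4. Untested HOX genes had at most 18 counts in any library, and at this depth no change could be read for most of them.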
